A study of Mus musculus with 46 samples.

Results

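In AgRP neurons, 1158 stretches of open chromatin opened when mice were fasted and closed again, wholly or in part, within hours of a leptin injection. They were taken from the 90196 ATAC-seq peaks of a deposited table of log2 CPM values (counts scaled to library size), of which 74904 had a mean of at least 1 over 6 libraries. A peak was a member if its mean was at least 1, if the fasted mean exceeded the fed mean by at least 0.6, if the leptin mean lay at least 0.6 below the fasted mean, and if the lower fasted value exceeded both fed and both leptin values. The state levels of these peaks therefore follow from the rule and are described without a test. ATAC-seq counts the cuts that a transposase makes in accessible DNA, so a higher value stands for more accessible chromatin.

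All mice were male NuTRAP AgRP animals, 6 to 11 weeks old, which carry Cre from the Agrp-IRES-Cre allele and a cassette behind a loxP-flanked stop that encodes a GFP-tagged L10a ribosomal subunit and mCherry-tagged RANGAP in cells with Cre. Tagged nuclei and ribosomes of the arcuate nucleus (ARC) were pooled from 4 mice per library. The fed group ate ad libitum and received vehicle, the fasted group went without food for 18 to 20 h and received vehicle, and the leptin group was fasted in the same way and received 5 mg/kg leptin, with tissue taken 3 h after injection. Each state had 2 ATAC libraries, and translating ribosome affinity purification (TRAP) followed by RNA-seq gave 3 fed, 4 fasted and 4 leptin libraries of the 46 samples in the series. ATAC libraries of AgRP-positive and AgRP-negative nuclei, 2 each, came from mice fed ad libitum. So did 1 CUT&RUN sample each for CTCF and for IRF3. The IRF3 sample came from mice that overexpress IRF3-2D, which the paper describes as a phospho-mimetic, constitutively active form. State ATAC libraries held 14324992 to 17190963 counts in peaks, except fed library 1 with 8263234.

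AgRP neurons release AgRP, NPY and GABA, promote feeding, are active in the fasted animal and are restrained by leptin, which acts through its receptor and STAT3. Distal open regions often hold enhancers, where sequence-specific factors bind. AP-1 dimers of Fos and Jun proteins bind TGANTCA and follow neuronal activity, MEF2 factors bind A/T-rich elements and control activity-dependent genes, and the receptors for glucocorticoids, mineralocorticoids and progesterone bind an inverted repeat of which ACANNNTGT is the core.

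The member peaks carried these letters often, and 8 that hold matches are printed. Windows with none of these matches, such as those near Noct, Epha2, Mpp3 and Dnajb5, are not shown. Each line below gives 300 bases around the midpoint of a member, read from the RefSeq copy of GRCm38 (mm10) on the plus strand, with matches to ACANNNTGT, TGANTCA and CTANNNNTA on either strand in capitals. The first 2 are among the members with the largest change in both directions, and the other 6 lie nearest to genes whose RNA fell with leptin. Lrrc7 is an intronic peak, Met and Fgf7 lie at promoters, and all 3 hold the inverted repeat. Stk38l, Kcnj5 and Dusp5 hold the inverted repeat and an AP-1 match in the same window, Dse holds an AP-1 match, and Nr4a1 has overlapping MEF2 matches upstream of its start site.
Lrrc7, chr3:158395904-158396203: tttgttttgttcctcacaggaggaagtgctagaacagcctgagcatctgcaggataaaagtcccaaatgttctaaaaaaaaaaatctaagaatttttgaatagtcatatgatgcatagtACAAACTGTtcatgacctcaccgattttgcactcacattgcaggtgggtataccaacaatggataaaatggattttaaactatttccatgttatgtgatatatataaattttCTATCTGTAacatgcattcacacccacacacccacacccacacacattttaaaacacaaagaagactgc
Met, chr6:17490842-17491141: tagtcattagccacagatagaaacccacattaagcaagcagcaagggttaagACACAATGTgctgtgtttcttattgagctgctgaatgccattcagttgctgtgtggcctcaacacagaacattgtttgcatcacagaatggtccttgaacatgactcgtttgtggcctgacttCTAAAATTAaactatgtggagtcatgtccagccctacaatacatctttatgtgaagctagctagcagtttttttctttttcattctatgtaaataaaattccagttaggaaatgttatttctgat
Fgf7, chr2:126033782-126034081: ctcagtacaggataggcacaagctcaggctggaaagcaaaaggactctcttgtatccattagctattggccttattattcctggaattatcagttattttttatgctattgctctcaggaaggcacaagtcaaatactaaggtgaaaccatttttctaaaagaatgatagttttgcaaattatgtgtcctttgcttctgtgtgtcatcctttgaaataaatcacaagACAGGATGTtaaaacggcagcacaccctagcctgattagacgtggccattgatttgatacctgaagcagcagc
Stk38l, chr6:146735617-146735916: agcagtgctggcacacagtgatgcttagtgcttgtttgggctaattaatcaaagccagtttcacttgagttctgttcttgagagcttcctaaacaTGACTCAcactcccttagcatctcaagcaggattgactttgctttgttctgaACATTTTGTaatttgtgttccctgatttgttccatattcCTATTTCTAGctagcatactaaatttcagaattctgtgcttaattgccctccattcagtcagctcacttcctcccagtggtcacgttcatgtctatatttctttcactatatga
Kcnj5, chr9:32326277-32326576: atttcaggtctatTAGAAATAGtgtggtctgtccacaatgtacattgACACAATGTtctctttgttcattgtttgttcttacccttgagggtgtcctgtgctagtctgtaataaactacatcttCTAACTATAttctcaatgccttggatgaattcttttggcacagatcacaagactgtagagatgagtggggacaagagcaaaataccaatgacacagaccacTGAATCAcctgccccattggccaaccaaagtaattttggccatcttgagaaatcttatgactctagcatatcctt
Dusp5, chr19:53507514-53507813: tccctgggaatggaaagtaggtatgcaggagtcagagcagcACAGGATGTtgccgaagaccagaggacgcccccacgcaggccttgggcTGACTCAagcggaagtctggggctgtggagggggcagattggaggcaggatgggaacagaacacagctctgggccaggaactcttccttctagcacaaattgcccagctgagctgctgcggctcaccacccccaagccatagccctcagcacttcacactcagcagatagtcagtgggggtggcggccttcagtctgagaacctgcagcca
Dse, chr10:34180057-34180356: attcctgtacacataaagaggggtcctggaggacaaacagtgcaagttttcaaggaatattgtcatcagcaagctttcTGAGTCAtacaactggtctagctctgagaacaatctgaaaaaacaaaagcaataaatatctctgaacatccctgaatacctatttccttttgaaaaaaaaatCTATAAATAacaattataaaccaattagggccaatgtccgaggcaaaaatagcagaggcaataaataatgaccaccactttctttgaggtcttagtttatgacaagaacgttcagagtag
Nr4a1, chr15:101266546-101266845: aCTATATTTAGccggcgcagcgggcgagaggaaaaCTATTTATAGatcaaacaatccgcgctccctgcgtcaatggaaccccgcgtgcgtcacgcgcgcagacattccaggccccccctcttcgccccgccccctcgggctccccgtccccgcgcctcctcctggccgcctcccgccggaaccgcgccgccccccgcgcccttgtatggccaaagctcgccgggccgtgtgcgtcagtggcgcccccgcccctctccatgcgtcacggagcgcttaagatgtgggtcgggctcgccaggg
Adjacent or overlapping matches run together in capitals, since ACANNNTGT and TGANTCA read the same on both strands while CTANNNNTA does not.

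By construction the fasted libraries stood above the others. The median member had a log2 CPM of 1.41 and 1.18 in the fed libraries, 2.90 and 2.62 in the fasted libraries and 2.01 and 1.69 in the leptin libraries. Before scaling, that was a median of 20 and 30 raw counts per member in the fed, 115 and 96.5 in the fasted and 56 and 54.5 in the leptin libraries. The median rise with fasting was 1.33 log2 units, or 2.51-fold, with a range of 0.6 to 4.31. The median change from fasted to leptin was -0.86, or 1.82-fold lower, with the strongest at -2.92. The 2 libraries of a state differed by a median of 0.53 (fed), 0.38 (fasted) and 0.43 (leptin), and the rule itself required that the fasted values lie clear of the others.

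**Figure D1:**
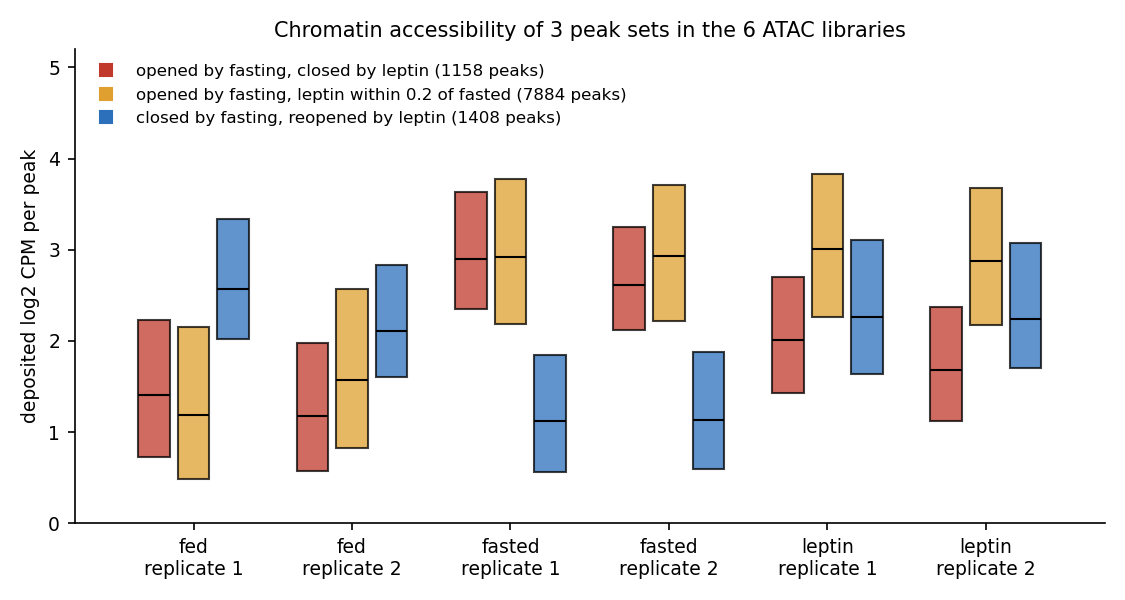
Log2 CPM of the member peaks in each of the 6 ATAC libraries, beside the peaks that fasting opened and leptin left within 0.2 of the fasted level. Boxes are quartiles with the median, and the members' medians fall from 2.90 and 2.62 (fasted) to 2.01 and 1.69 (leptin), while those of the comparison peaks stay at 3.01 and 2.88.

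Members differed in how far leptin took them towards the fed level. Both leptin values lay above both fed values at 527 members, both lay below at 44, and the values overlapped at 587. The leptin mean was at or below the fed mean at 268 members. Leptin took back a median of 66.3% of the rise, with quartiles of 45.3% and 97.2%. These are descriptions of values that the rule constrained in part, and leptin against fed was not tested.

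Members were a small share of what fasting opened. Peaks that rose by the same rule and whose leptin mean stayed within 0.2 of the fasted mean numbered 7884, and 1408 peaks went the opposite way, closed by fasting and reopened by leptin. In an edgeR fit over all peaks, 819 of the 1158 members were called higher with fasting and 64 were called lower with leptin (FDR below 0.05, with a log2 fold change of more than 0.5 in size). Of all 102237 peaks in that fit, 19.0% were called higher with fasting and 0.305% lower with leptin. Because these contrasts chose the members, nothing is read from the shares. The leptin count rested on single libraries: it was 2 without fasted library 1, 214 and 210 without fed libraries 1 and 2, and 0 without either leptin library, where the remaining leptin library is assumed to vary like the other groups. At an unadjusted p under 0.05, 659 members lay below fasted without leptin library 1 and 223 without leptin library 2, among peaks chosen for lying below fasted. DESeq2 called 65 with all libraries.

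At the edge of the rule, members near Zfp385b and Tulp4 rose by 0.6 and a peak near Ndufa8 stayed outside with 0.595. For the fall, members near Hivep3 and Col1a2 stood at -0.6 and a peak near Csmd2os stayed outside with -0.595.

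The members lay away from promoters. Of the 1158, 675 (58.3%) were intronic, 420 (36.3%) intergenic, 41 (3.54%) exonic and 22 (1.9%) within 1000 bases upstream of an annotated start site. Among all peaks with a mean of at least 1, 10.6% were at promoters and 11.2% in exons, against 2.28% and 4.34% of the peaks opened by fasting and left unmoved by leptin. A start site lay within 200 kb of 1007 members, at a median distance of 36.2 kb, compared with 21.2 kb for all peaks and 29.7 kb for the unmoved ones. Median GC content of the 300-base window was 42.3% at members, 46.0% at unmoved and 48.7% at all peaks. Median width was 519.5 bases against 571 for all peaks.

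Nearest start sites belonged to 926 genes. Of these, 857 had 1 member, 59 had 2, 8 had 3, and Dpp6, which encodes an auxiliary subunit of Kv4 potassium channels, and Fndc3a had 4 each. Scg2, which encodes the granin secretogranin II of dense-core vesicles, had 3: chr1:79343966-79344481 rose by 2.80 and changed by -1.13 with leptin, chr1:79365445-79365920 by 3.22 and -1.10, and chr1:79431064-79431377 by 1.30 and -1.10.

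The members with the largest change both ways, ranked by the smaller of the rise and the fall, are given with their libraries. First was an intergenic peak at chr1:168702691-168703507 with no start site within 200 kb, at 2.51 and 0.08 log2 CPM in the fed libraries, 3.73 and 3.68 in the fasted and 1.43 and 1.54 in the leptin libraries. Its fed libraries differed by more than the distance of fed library 1 from the fasted ones. An intronic peak of Lrrc7, a postsynaptic scaffold protein, at chr3:158395731-158396376 stood at 1.34 and 0.42 (fed), 3.30 and 3.12 (fasted) and 1.32 and 1.26 (leptin). The fasted and the leptin replicates were close there, the fed ones were further apart, and leptin and fed values overlapped. The peak at chr6:17490721-17491262, 0.25 kb from a start site of Met, the receptor tyrosine kinase for hepatocyte growth factor, stood at 1.41 and 1.26 (fed), 3.8 and 2.56 (fasted) and 1.64 and 0.06 (leptin). Both its fasted and its leptin libraries were far apart. An intronic peak of Jmjd1c, a gene of the jumonji histone demethylase family, at chr10:67234354-67234831 stood at 1.02 and -0.02 (fed), 2.55 and 2.08 (fasted) and 0.32 and 0.21 (leptin). Both of its leptin values lay between the fed values.

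Of the most accessible members, the highest was a peak 148.68 kb from the start of Sipa1l2, a Rap GTPase-activating protein, at 5.2 and 5.53 (fed), 6.37 and 5.81 (fasted) and 5.48 and 5.2 (leptin). An intronic peak of Mbd5, a methyl-CpG-binding domain gene, rose by 0.62 and changed by -0.70 with leptin, and the peak near Chit1 by 0.61 and -0.94.

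Short sequence matches were distributed differently in members and in other peaks that fasting opened. Of the 1158 windows, 395 (34.1%, exact binomial 95% interval 31.4 to 36.9) held the steroid receptor inverted repeat ACANNNTGT, against 12.6% of all peaks with a mean of at least 1, 16.3% of the unmoved peaks (15.5 to 17.1) and 11.3% of the peaks closed by fasting and reopened by leptin. AP-1 matches (TGANTCA) were in 478 members (41.3%, 38.4 to 44.2), against 30.3% of all peaks and 73.4% (72.4 to 74.3) of the unmoved ones. MEF2 matches (CTANNNNTA) were in 508 members (43.9%, 41.0 to 46.8), against 23.9% of all and 28.8% of unmoved peaks. Relative to the unmoved peaks, the members thus had more inverted repeats and MEF2 matches and fewer AP-1 matches. Intervals cover counting error over peaks only, and peaks are not independent replicates. The match to these letters is a description and names no bound factor.

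The difference went with the size of the leptin response. Among the 20096 peaks that met the fasting part of the rule, the inverted repeat was in 43.7% of those that leptin lowered by more than 1 log2 unit, in 30.2% at -1 to -0.6, in 23.7% at -0.6 to -0.3, in 18.6% at -0.3 to 0, and in 14.5%, 13.5% and 12.9% of the 3 classes from 0 upward. AP-1 matches went from 31.3% in the most lowered class to 45.6%, 60.4% and 70.9%, and lay between 71.3% and 74.8% above 0. MEF2 matches fell from 51.1% to 41.4%, 32.6% and 29.6%, with 27.4% to 28.9% above 0. STAT matches (TTCCNGGAA) went the other way, from 0.275% in the most lowered class to 5.65% where leptin raised the peak by a further 0.6 or more. Members held a STAT match in 4 of 1158 windows (0.345%, 0.0942 to 0.882), against 2.4% of all peaks and 12.6% of the peaks closed by fasting and reopened by leptin. The median GC content moved along the classes as well, from 41.2% in the most lowered to 43.0%, 44.7% and 45.7%, and up to 46.0% above 0, and its part in these shares was not tested.

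**Figure D2:**
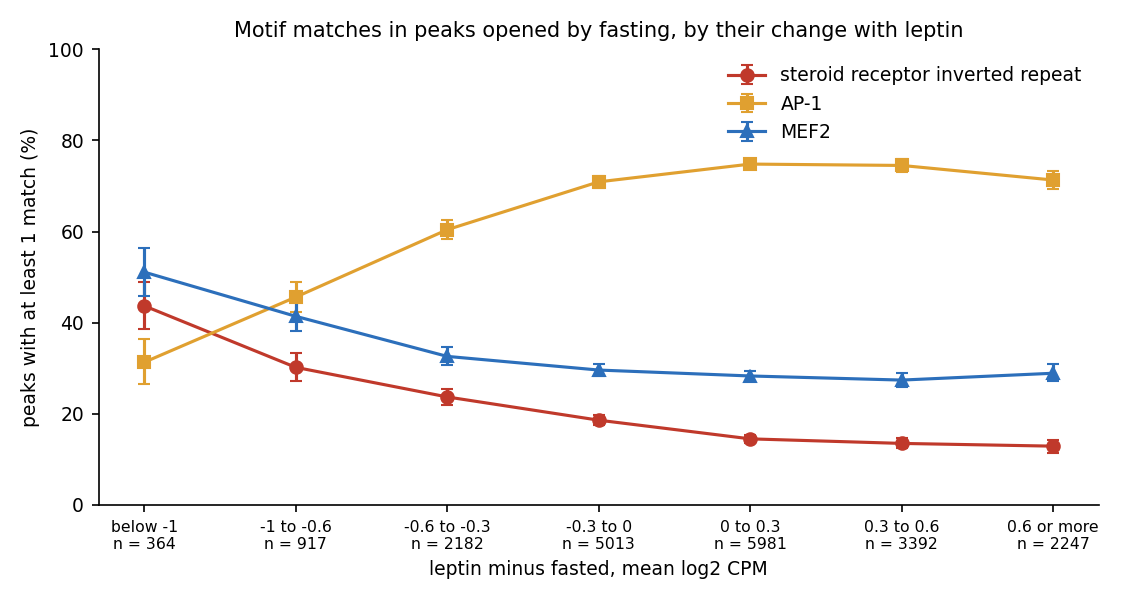
Percent of the 20096 peaks opened by fasting that hold each motif, by the change from fasted to leptin in log2 CPM, with exact binomial 95% intervals. The inverted repeat falls from 43.7% to 12.9% and AP-1 rises from 31.3% to over 70%.

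The shares were also counted within classes of GC content. In windows under 35% GC the inverted repeat was in 40.2% of members (30.6 to 50.4), 20.2% of unmoved and 23.1% of all peaks. At 40 to 45% GC the values were 37.5% (32.3 to 43.0), 18.5% and 17.5%. At 50% GC and above they were 24.0% (17.8 to 31.1), 12.3% and 7.06%, so the members were higher in each class shown. AP-1 was lower in members than in unmoved peaks in each of the 5 GC classes, for example 41.7% against 73.9% at 40 to 45%. Below 35% GC it was in 35.3% of members and 38.4% of all peaks, and at 40 to 45% in 41.7% and 42.0%. At 35 to 40% the shares were 47.1% and 42.2%, at 45 to 50% 44.7% and 38.0%, and at 50% and above 28.7% and 18.2%. MEF2 depended more on GC: below 35% it was in 55.9% of members (45.7 to 65.7) and 52.7% of unmoved peaks, which the interval does not separate, whereas at 40 to 45% it was in 48.9% (43.5 to 54.5) and 34.8%.

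**Figure D3:**
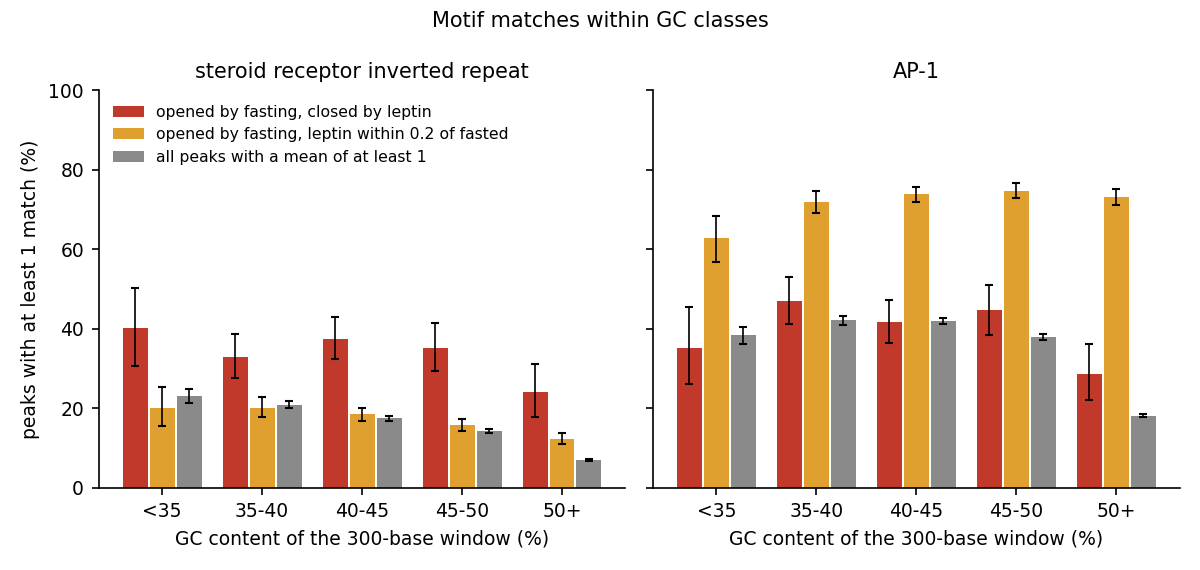
Percent of windows with the inverted repeat and AP-1 letters by GC class of the window, for members, unmoved peaks and all peaks with a mean of at least 1. Error bars are exact binomial 95% intervals. The inverted repeat is higher in members in each class, from 40.2% below 35% GC to 24.0% at 50% and above.

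The inverted repeat and AP-1 often occurred apart. Of the members 250 (21.6%) held the inverted repeat only, 333 (28.8%) AP-1 only, 145 (12.5%) both and 430 (37.1%) neither. Among unmoved peaks these shares were 5.14%, 62.2%, 11.1% and 21.5%. Members with the inverted repeat only had a median rise of 1.34 and a median leptin change of -0.98, those with AP-1 only 1.40 and -0.80, those with both 1.70 and -0.78, and those with neither 1.16 and -0.87. A longer form of the repeat, with G at the second base before ACA and C at the second base after TGT, was found in 136 of 483 member matches (28.2%), 19.0% of matches in unmoved and 16.9% in all peaks. Within 50 bases of the midpoint lay 40.6% of the inverted repeats in members and 36.6% in all peaks, and 39.7% and 45.2% of the AP-1 matches.

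The shares of the other motifs searched lay on both sides of the all-peak shares. Several of them were not separated from the all-peak share by the members' interval. The CRE (TGACGTCA) was in 14 members (1.21% against 0.899%), IRF (GAAANNGAA) in 11.1% against 9.36%, NFIL3 (TTANGTAA) in 3.8% (2.77 to 5.07) against 2.57%, forkhead (TGTTTAC) in 6.30% (4.97 to 7.86) against 4.41%, bHLH (CAGATG) in 25.3% against 23.3%, NFI (TTGGCA) in 16.1% against 14%, MAF (TGCTGAC) in 7.08% against 6.48% and Nr4a (AAAGGTCA) in 1.81% against 1.27%. The A/T-rich homeodomain letters TAATTA were in 9.93% (8.27 to 11.8) against 5.53%, a gap that depended on GC content. Below 35% GC they were in 12.7% of members and 13.2% of all peaks, and at 35 to 40% in 11.1% and 10.7%. At 40 to 45% the shares were 11.1% and 8.53%, at 45 to 50% 7.84% and 6.15%, and at 50% and above 7.02% and 2.29%. In each GC class the members' interval for forkhead held the all-peak share, for example 6.40% (3.90 to 9.81) and 6.89% at 35 to 40%. Letters common at promoters had lower shares in members than in peaks overall. ETS (CCGGAAGT) was in 1 member (0.0864% against 1.36%) and RFX (GTTGCCATG) in 11 (0.95% against 2.22%). Within GC classes the members' ETS interval missed the all-peak share only at 50% and above (0 to 2.13, against 2.59%). For RFX it did so only at 40 to 45% (0.0728 to 2.15, against 2.21%). EGR (GCGTGGGCG) was in 1 (0.0864% against 0.363%), with an interval (0.00219 to 0.48) that held the all-peak share.

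RNA of the factors that bind such letters was measured in other libraries. Of the 50 factor genes tested among 56 listed, 5 rose and 1 fell with fasting, and 4 rose and 3 fell with leptin. Over all 13401 genes, 2.81% rose and 1.08% fell with fasting, and 1.19% rose and 0.604% fell with leptin. The factors' median log2 fold changes were -0.03 and -0.02 (0.018 and -0.014 over all genes). Nr3c1, the glucocorticoid receptor, had 384 ± 49.7 CPM fed (SD, n = 3), 374 ± 23.2 fasted and 293 ± 20.8 after leptin (n = 4 each). Its fasting log2 fold change was -0.04 (SE 0.11, FDR 0.91) and its leptin change -0.35 (SE 0.10, FDR 0.132), neither past the threshold. Nr3c2, the mineralocorticoid receptor, had 30.1 ± 0.937, 25.7 ± 3.07 and 54.0 ± 6.72 CPM and rose with leptin by 1.07 (SE 0.10, FDR 4.40e-04), with a fasting change of -0.23 (FDR 0.306). Every leptin library was above every fed and fasted one. For Pgr, the progesterone receptor, the changes of 0.06 with fasting (FDR 0.972) and -0.27 with leptin (FDR 1.0) did not pass. Mef2a, Mef2c and Mef2d changed by -0.18, -0.36 and -0.09 with fasting and by 0.21, 0.04 and -0.07 with leptin, and none passed.

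AP-1 genes moved in different directions. Fos rose from 17.5 ± 4.75 to 44.5 ± 7.98 CPM with fasting (log2 fold change 1.35, SE 0.20, FDR 0.00322) and stood at 29.6 ± 2.99 after leptin (-0.59, FDR 0.161, and 0.0124 with the replicate block, where it was called lower). Fosb fell with leptin by 1.56 on the log2 scale (SE 0.24, FDR 0.00622), and its fasting change of 0.69 (FDR 0.166) was called with the block (FDR 0.00543) and without fed library 4 (FDR 0.0344). Jun rose with leptin by 1.10 (SE 0.11, FDR 4.91e-04) and Atf3 by 2.38 (SE 0.26, FDR 7.44e-04). Junb (0.57, SE 0.12, FDR 0.0198) rose with fasting, a call lost when any of 4 libraries was left out, with an FDR of 0.0971 without fed library 1. Maff, a small MAF protein (0.82, SE 0.12, FDR 0.00304), and the repressor Nfil3 (1.58, SE 0.14, FDR 5.85e-04) also rose with fasting. Irf9 fell with fasting by 0.68 (SE 0.13, FDR 0.0141) and rose with leptin by 1.13 (SE 0.12, FDR 7.44e-04). The Irf9 fasting call was lost without any of 3 libraries, with an FDR of 0.0638 without fed library 1. Nr4a3, which binds the Nr4a element, fell with leptin by 1.25 (SE 0.25, FDR 0.0263), lost without any of 6 libraries, with an FDR of 0.0921 without leptin library 3.

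The genes nearest to members were tested in the TRAP RNA-seq, whose libraries the rule did not use. Of 926 genes, 643 had a mean above 1 CPM. With fasting, 52 of these rose (8.09%) and 4 fell (0.622%), against a background over all 13401 genes of 2.81% higher and 1.08% lower. Genes nearest to any peak with a mean of at least 1 rose in 2.92% of 11835 cases, those nearest to unmoved peaks in 4.75% of 3409 and those nearest to peaks closed by fasting and reopened by leptin in 2.51% of 678. The median log2 fold change was 0.059 at the members' genes and 0.018 over all genes. With scaling by library size alone, 23 rose with fasting, against 1.1% of all genes. With leptin, 19 of the 643 fell (2.95%) and 8 rose (1.24%), against 0.604% lower and 1.19% higher over all genes. With scaling by library size alone, 7 fell, against 0.284% of all genes. Unmoved peaks had 1.32% lower and 1.73% higher, and the genes of reopened peaks 0.737% lower and 5.01% higher. Both RNA contrasts share the fasted libraries, so each is given on its own.

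**Figure D4:**
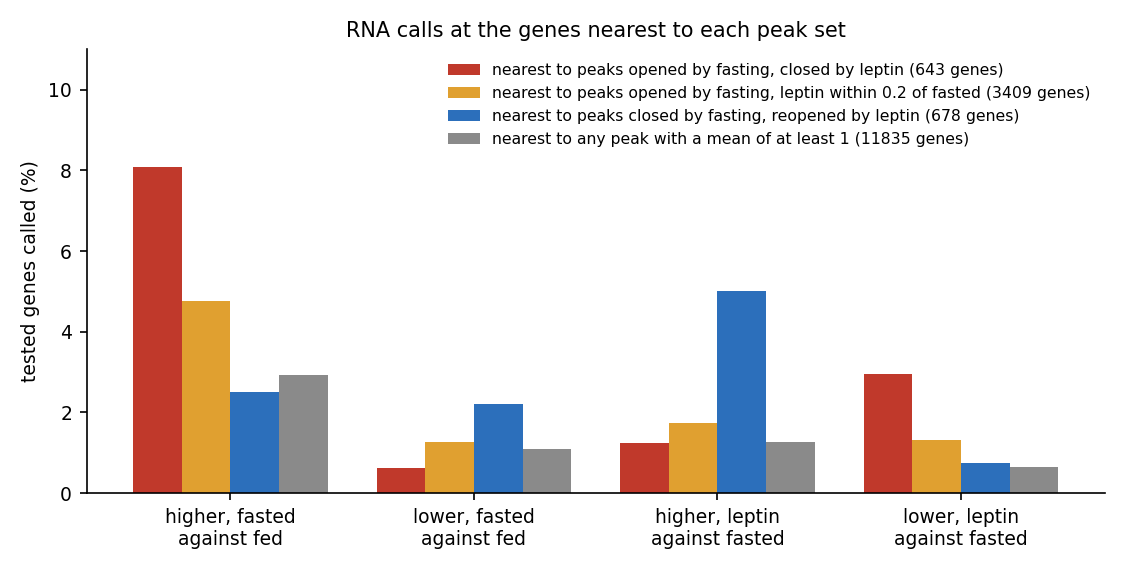
Percent of tested genes called higher or lower in RNA with fasting and with leptin, for genes nearest to members, to the comparison peaks and to any peak with a mean of at least 1. The members' genes reach 8.09% higher with fasting and 2.95% lower with leptin, against 2.92% and 0.651% of genes nearest to any such peak.

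Library choice changed the smaller counts. Same-numbered RNA libraries deviated together, and with the replicate number as a block 13 rather than 4 of the members' genes fell with fasting (2.58% of all genes did) and 33 rather than 19 fell with leptin (1.07% of all). The replicate 4 libraries of all states stood apart from the rest. Without them 59 genes rose and 12 fell with fasting (3.03% and 2.24% of all genes did). With leptin 11 rose and 26 fell (1.72% and 0.708% of all). The fasting rise also counted fewer genes, 34, when fasted library 3 or fed library 1 was left out, and 8 higher with leptin became 4 without fasted library 1 and 5 without fasted library 2 or leptin library 1.

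The share of genes that rose with fasting was 9.62% of 208 within 20 kb of a member, 9.09% of 198 at 20 to 50 kb, 6.29% of 143 at 50 to 100 kb and 5.32% of 94 at 100 to 200 kb. The share that fell with leptin was 2.4%, 1.52%, 4.2% and 5.32%, with 3 to 6 genes in each class. By motif, 10 of 149 genes of members with the inverted repeat only rose with fasting, 16 of 191 with AP-1 only, 10 of 94 with both and 23 of 248 with neither.

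The genes closest to a member among those that fell with leptin show the pattern at single genes. Nr4a1, an immediate early gene for an orphan nuclear receptor, has a member 0.15 kb from its start at chr15:101266310-101267082, at 3.54 and 4.03 (fed), 5.30 and 4.14 (fasted) and 4.02 and 3.56 log2 CPM (leptin). Fasted library 2 was only just above fed library 2. Its RNA was 7.50, 5.62 and 11.0 CPM in the fed libraries, 21.7, 28.9, 12.8 and 34.1 in the fasted and 4.14, 7.10, 6.59 and 8.74 in the leptin libraries. All fasted libraries exceeded all others, with a fasting log2 fold change of 1.61 (SE 0.36, FDR 0.0266) and a leptin change of -1.87 (SE 0.33, FDR 0.0119). The fasting call was lost without any of 4 libraries, with an FDR of 0.113 without fed library 1. Fgf7, a fibroblast growth factor, has a member 0.73 kb from its start at chr2:126033087-126034776, at 4.42 and 3.82, 5.40 and 4.84, and 4.30 and 4.31. Its RNA was 1.03, 0.702 and 0.209 CPM fed, 5.77, 5.10, 6.43 and 3.00 fasted, and 0.802, 0.942, 1.07 and 0.410 after leptin. The groups did not overlap between fasted and the others, with log2 fold changes of 2.91 (SE 0.45, FDR 0.00444) and -2.62 (SE 0.39, FDR 0.00504).

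Dusp5, a nuclear phosphatase that inactivates ERK, lies 21.44 kb from an intergenic member at chr19:53507548-53507779, which stood at 0.03 and -0.02 (fed), 2.60 and 2.06 (fasted) and 1.73 and 0.78 (leptin). Its RNA was 1.13, 1.05 and 1.30 CPM fed, 5.34, 4.88, 4.07 and 4.57 fasted and 2.10, 1.30, 1.70 and 1.39 after leptin, a rise of 2.03 (SE 0.20, FDR 7.98e-04) and a leptin change of -1.54 (SE 0.17, FDR 7.44e-04). Fasted libraries stood clear of both other groups. Dse, which converts glucuronic to iduronic acid in dermatan sulfate, holds a member within the gene at chr10:34179905-34180509, 27.51 kb from its start. That member was low in fed mice, at -1.35 and -0.13, and stood at 2.74 and 2.76 (fasted) and 1.50 and 1.30 (leptin). Its RNA was 13.1, 13.5 and 8.73 CPM fed, 44.2, 32.0, 42.1 and 26.3 fasted and 17.2, 16.1, 18.7 and 11.4 after leptin (1.61, SE 0.23, FDR 0.00324, and -1.19, SE 0.21, FDR 0.0121). Mean chromatin and RNA levels of both genes after leptin lay between the fasted and the fed means, and Dse RNA after leptin overlapped fed.

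Stk38l, a kinase of the NDR family, holds an intronic member at chr6:146735428-146736106, 10.73 kb from its start, at 3.72 and 3.28 (fed), 4.78 and 4.20 (fasted) and 4.02 and 3.53 (leptin). Its RNA was 31.1, 31.8 and 29.0 CPM fed, 61.7, 56.1, 60.8 and 52.2 fasted and 41.7, 35.5, 34.2 and 30.5 after leptin (0.91, SE 0.11, FDR 0.0015, and -0.70, SE 0.10, FDR 0.00328). Noct, the circadian protein nocturnin, has its nearest member outside the gene, in an intron of Elf2 at chr3:51257659-51258729 and 17.99 kb from a start site of Noct, at 3.04 and 1.82, 3.96 and 4.08, and 3.22 and 3.07. Its RNA was 69.2, 75 and 63.9 CPM fed, 112, 114, 131 and 104 fasted and 58.9, 72.9, 76.4 and 56.7 after leptin (0.73, SE 0.12, FDR 0.00712, and -0.80, SE 0.11, FDR 0.00395). In both genes the fasted RNA values did not overlap the others, and the leptin values overlapped the fed ones.

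Pwwp2b, a PWWP-domain chromatin protein, rose with fasting by 0.70 (SE 0.10, FDR 0.00334) and fell with leptin by 0.58 on the log2 scale (SE 0.09, FDR 0.00855). Greb1l rose by 1.10 (SE 0.12, FDR 0.00107) and fell by 0.67 (SE 0.11, FDR 0.00726). Kcnj5, a G protein-gated inward rectifier potassium channel subunit, fell with leptin by 0.80 (SE 0.15, FDR 0.0181), lost without any of 4 libraries with an FDR of 0.0719 without leptin library 1. Its fasting change of 0.51 passed only with the block (FDR 0.108 without it, 0.00126 with it). Myrip, a Rab and myosin linker, fell by 0.50 (SE 0.07, FDR 0.00379), at the edge of the fold threshold and lost without any of 4 libraries, while its fasting change was 0.20 (FDR 0.171).

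**Figure D5:**
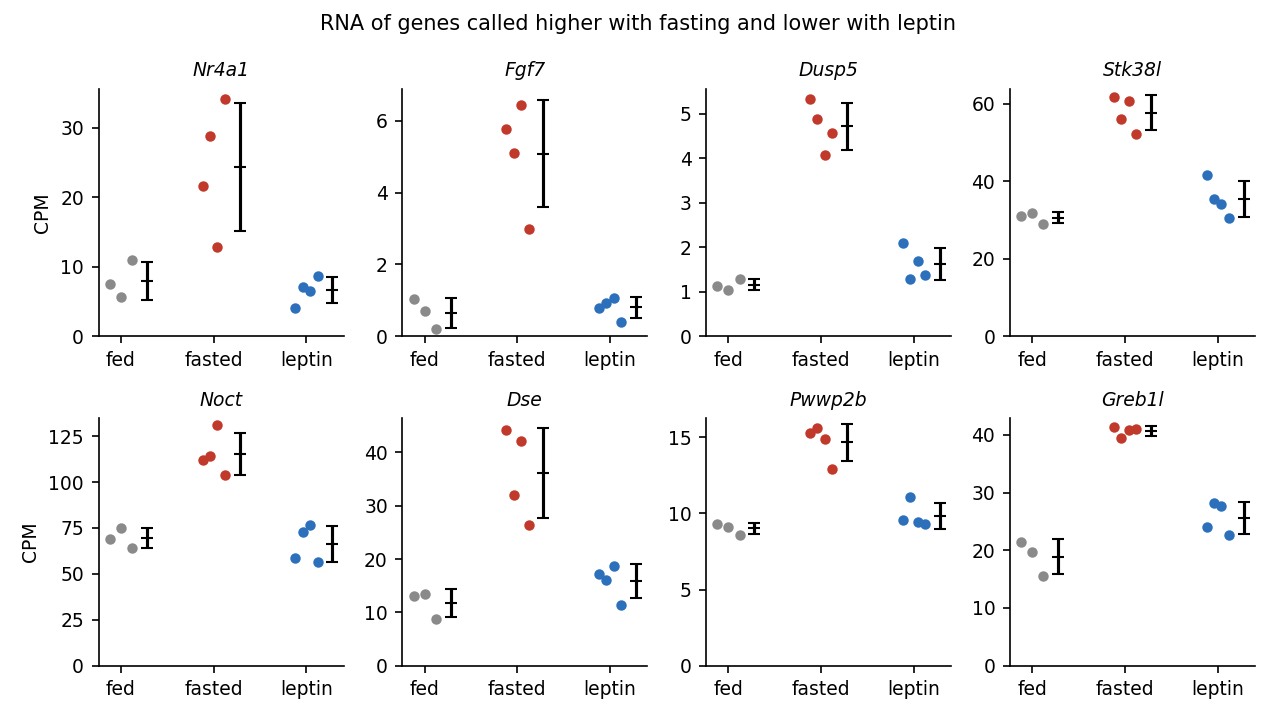
CPM in each TRAP RNA-seq library for Nr4a1, Fgf7, Dusp5, Stk38l, Noct, Dse, Pwwp2b and Greb1l in fed (n = 3), fasted and leptin (n = 4 each) mice, with mean ± SD. In all 8 genes each fasted library lies above each fed and each leptin library.

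Among the genes that rose with fasting and lie closest to a member, several were not called lower with leptin in the fit without the replicate block. Epha2, an ephrin receptor, rose by 1.90 (SE 0.26, FDR 0.00229) with a leptin change of -0.33 (FDR 0.893). Ell2, a transcription elongation factor, rose by 1.73 (SE 0.24, FDR 0.0026), and Eaf2, which encodes a binding partner of ELL proteins, by 1.61 (SE 0.24, FDR 0.00345). The Ell2 member lies 5.60 kb from its start, outside the gene, and the Eaf2 member in an intron, 6.59 kb from a start, and both windows hold the inverted repeat and an AP-1 match. Nmb, the neuropeptide neuromedin B, rose by 2.09 (SE 0.29, FDR 0.00254), Angptl4, an inhibitor of lipoprotein lipase, by 1.64 (SE 0.22, FDR 0.00211), Mpp3 by 1.04 (SE 0.20, FDR 0.0133) and the chaperone gene Dnajb5 by 0.88 (SE 0.14, FDR 0.00487). Leptin changes were -0.61 for Ell2, -0.78 for Nmb, -0.74 for Angptl4 and -0.76 for Mpp3, with FDR of 0.284, 0.197, 0.0812 and 0.0609, and all 4 were called lower with the replicate block (FDR 3.72e-04, 0.00757, 0.00905 and 2.99e-05). The Mpp3 rise was lost without fed library 4 (FDR 0.0698). Tmeff2 rose by 0.94 (SE 0.20, FDR 0.0222), lost without any of 6 libraries, with an FDR of 0.0977 without fed library 1. Eaf2, Dnajb5 and Tmeff2 had leptin changes of -0.47, -0.25 and -0.29, and none was called with or without the block.

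Some genes went against their member. The 4 that fell with fasting, named here after their values were seen, were Fggy (-0.71, FDR 0.00725), the histamine H1 receptor gene Hrh1 (-0.65, FDR 0.00313), Adgrg6 (-1.05, FDR 0.0398) and Zfpm2, a cofactor of GATA factors (-0.64, FDR 0.00169). The Adgrg6 call was lost without any of 8 libraries, with an FDR of 0.155 without fed library 1, and its leptin change of 0.71 (FDR 0.256) was called higher with the block (FDR 0.0129). Zfpm2 rose again with leptin by 0.68 (SE 0.08, FDR 7.44e-04). Jmjd1c, whose intronic member closed with leptin, rose with leptin by 0.77 (SE 0.08, FDR 5.86e-04) and had a fasting change of 0.13 (FDR 0.452). Met and Lrrc7 RNA changed by 0.40 and 0.23 with fasting (FDR 0.304 and 0.804), and by -0.18 and 0.02 with leptin (FDR 1.0 each).

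Several genes for signalling molecules were the nearest gene to a member. Htr2a, a serotonin receptor, rose with fasting by 0.82 (SE 0.13, FDR 0.00487) and fell with leptin by 1.09 (SE 0.12, FDR 7.44e-04). Gdnf, a neurotrophic factor, rose by 2.08 (SE 0.29, FDR 0.00261) and fell by 1.16 (SE 0.24, FDR 0.0304), the fall lost without any of 7 libraries with an FDR of 0.105 without leptin library 1. Pcsk1, a prohormone convertase (0.74, SE 0.12, FDR 0.00543), and Pdyn, prodynorphin (0.67, SE 0.11, FDR 0.00478), rose with fasting, with leptin changes of -0.29 and -0.15 that did not pass. Scg2 rose by 1.29 (SE 0.33, FDR 0.0473), lost without any of 8 libraries, with an FDR of 0.18 without fed library 1. Csf1 went the other way, with a rise of 0.65 with leptin (FDR 0.0153), lost without any of 2 libraries. The nearest members lay 104.6 kb from a start of Htr2a, 118.1 kb from Gdnf, 26.9 kb from Pcsk1, 42.7 kb from Pdyn and 6.4 kb from Csf1. Apart from Scg2, these genes were picked from the called genes after their values were seen.

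Lists of 4 kinds of genes were looked up for members. A member lay within 200 kb of a start site for 4 of 15 AgRP neuron genes, 5 of 19 immediate early and activity genes, 3 of 10 leptin and STAT3 feedback genes and 3 of 14 endoplasmic reticulum stress genes, against 2500 of 12584 genes (19.9%) overall. At the AgRP neuron genes, the member 167.86 kb from Npy at chr6:49654558-49655133 stood at 3.63 and 3.24 (fed), 4.52 and 3.89 (fasted) and 3.64 and 3.24 (leptin), and an intronic member of Lepr at chr4:101735361-101735722 at 1.72 and 0.93, 2.12 and 1.78, and 0.90 and 0.96. Leptin and fed values were nearly the same at Npy. RNA of 1 gene of this list, the granin-family gene Vgf, rose with fasting (median over the list 0.54) and 1 fell with leptin (median -0.12), the latter Npy1r (-0.51, SE 0.09, FDR 0.0119), lost without any of 5 libraries with an FDR of 0.0465 without leptin library 1. Fasting changes of Npy (1.71, SE 0.56, FDR 0.113), Lepr (1.19, SE 0.31, FDR 0.0534) and Crh (1.04, SE 0.33, FDR 0.107) did not pass, but did with the block (FDR 1.16e-04, 8.49e-05 and 0.0239) and with DESeq2. Lepr also passed without fed library 3 (FDR 0.0443) or leptin library 4, and Crh without fasted library 4 (FDR 0.0349). With leptin the RNA of Npy, Lepr and Crh changed by -0.12, 0.01 and 0.02, and none was called with or without the block. Of the immediate early list, 6 of 19 rose with fasting (median log2 fold change 0.61), and with leptin 3 rose (Atf3, Jun and Nptx2) and 4 fell (Nr4a1, Nr4a3, Fosb and Npas4; median -0.22). Its members lay within 200 kb of Fos, Fosl2, Nr4a1, Scg2 and Atf3. Those for Fosl2 and Atf3 lay 168.89 and 195.87 kb from a start and were nearer to other genes. The peak 32.06 kb from Fos stood at 0.93 and 0.57 (fed), 2.58 and 1.93 (fasted) and 1.76 and 1.48 (leptin).

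The leptin and STAT3 list went the other way in RNA: 4 of 10 (Cish, Sbno2, Socs3 and Irf9) fell with fasting (median -0.53) and 7 rose with leptin (median 1.13). Its members lay within 200 kb of Stat3, Stat2 and Ptpn1, a phosphatase that dampens leptin receptor signalling. Those for Ptpn1 and Stat2 lay 192.95 and 48.55 kb from a start and were nearer to other genes. The intronic member of Stat3 stood at 3.39 and 3.64 (fed), 4.65 and 4.18 (fasted) and 3.92 and 3.00 (leptin). RNA of Ptpn1 rose with leptin by 0.52 (SE 0.08, FDR 0.0068), a call lost without 2 of the libraries, among them fasted library 2 (FDR 0.0275, under the fold threshold), and of Stat2 by 1.14 (SE 0.14, FDR 0.0017), while Stat3 changed by 0.42 (FDR 0.274). Of 13 endoplasmic reticulum stress genes tested, 4 rose with fasting (median 0.51), among them Atf4, and with leptin edgeR and DESeq2 called 0 and 0 had an unadjusted p under 0.05 (median -0.04). The 3 with a member, the chaperones Hspa5 and Hyou1 and the disulfide isomerase Pdia6, rose with fasting by 0.97 (SE 0.15, FDR 0.00491), 0.78 (SE 0.14, FDR 0.00822) and 0.98 (SE 0.17, FDR 0.00757), with leptin changes of -0.04, -0.06 and -0.05. Their members lay 87.35, 153.63 and 107.43 kb from a start and were nearer to other genes.

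Sorted nuclei of fed mice gave a view of the members outside the fasting experiment. Of the 1158 members, 446 (38.5%) overlapped a peak of the table of sorted nuclei, against 68.1% of all peaks, 41.5% of unmoved and 80.8% of reopened ones. Of the 446, 229 (51.3%) were more accessible in AgRP-positive than in AgRP-negative nuclei and 24 (5.38%) less, where 24.1% and 15.3% of all 66560 peaks of that table were called. Among all state peaks that overlapped one, the shares were 29.9% and 8.64%, among unmoved peaks 60.9% and 1.96%, and among reopened peaks 58.7% and 6.15%. Over all members, with or without such a peak, 19.8% were called higher in AgRP nuclei, against 20.3% of all state peaks, 25.3% of unmoved and 47.4% of reopened ones, so the share above the background was seen among the members that overlap a peak of that table and not over all members. Mbd5 had 3.45 and 4.38 CPM in negative and 19.8 and 21.0 in positive nuclei (log2 fold change 2.38, SE 0.26, FDR 5.89e-18), and Sipa1l2 12.8 and 15.4 against 39.3 and 38.8 (1.47, SE 0.17, FDR 2.18e-16). The distal Npy member had 1.11 and 0.83 against 5.51 and 4.67 (2.38, SE 0.50, FDR 1.42e-05). The Pwwp2b member was lower in AgRP nuclei (-0.92, SE 0.36, FDR 0.0306), and those of Met (0.29, FDR 0.662) and Fgf7 (0.59, FDR 0.148) passed in neither direction. A count of 9 rather than 24 members was lower without AgRP-negative library 2.

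Start-site peaks of the cell-type markers were summed to check the nuclei. All 6 AgRP neuron markers had such a peak, with summed levels of 313 to 394 CPM in every state library, and glutamatergic and microglial markers had none. Astrocyte markers (3 of 5 with a peak, Gfap without) summed to 6.55 and 5.85 CPM in fed, 17.5 and 19.3 in fasted and 20.1 and 24.6 in leptin libraries, and endothelial markers (2 of 4) to 5.54 and 8.99, 16.6 and 17.1, and 20.8 and 17.5. The rise of each sum from fed to fasted was carried mainly by 1 gene. Aqp4 had 3.78 and 3.66 CPM in fed, 14.7 and 16.3 in fasted and 17.0 and 20.4 in leptin libraries, and Pecam1 2.27 and 5.63, 12.0 and 12.2, and 18 and 14.7, so both were higher in fasted than in fed libraries and higher again after leptin, where the members fell. Slc1a3 (0.804 to 2.18) and Gja1 (0.845 to 2.09) stayed low in every library, Cldn5 had 3.27 and 3.36, 4.59 and 4.86, and 2.82 and 2.83, and the Pecam1 peak was called higher in AgRP-positive nuclei. POMC neuron markers (2 of 3) ranged from 4.83 to 8.56, oligodendrocyte markers (1 of 7) from 33.2 to 45.6 and tanycyte markers (3 of 4) from 69.9 to 86.6 CPM. In the sorted nuclei the AgRP list was 134 and 128 CPM in negative and 273 and 252 in positive nuclei. The part of other cell types in the fasting rise was not tested, and in these pooled nuclei more cells of a type and more open chromatin per cell cannot be told apart.

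CUT&RUN peaks of AgRP neurons from fed mice rarely met the members, and the IRF3 map is from mice with the constitutively active IRF3-2D form. IRF3 peaks overlapped 22 members (1.9%, 1.19 to 2.86), against 12.4% of all peaks, 2.5% of unmoved and 8.31% of reopened peaks. CTCF peaks overlapped 80 members (6.91%, 5.52 to 8.52), against 25.5%, 8.31% and 25.2%. Outside promoters the IRF3 shares were 1.94% of members and 10.1% of all peaks, and the CTCF shares 6.87% and 23.8%. The IRF3 peaks were read from the SEACR list of the series, whose name differs slightly from the one in the sample's label. There was 1 sample per factor, and both came from fed mice, in which the members were least accessible. Binding of IRF3 in mice without IRF3-2D was not measured here.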

How the data were processed

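ATAC-seq, TRAP RNA-seq and CUT&RUN data of male NuTRAP AgRP mice were used. The submitters' processing notes name HISAT2, featureCounts (Subread), edgeR, Bowtie2, MACS2, bedtools and SEACR and the mm10 build, with no versions. The deposited RNA and ATAC tables hold raw counts per gene or peak. The authors also deposited log2 CPM values per peak for the 6 state libraries, and these chose the members. The IRF3 peak list gives the total signal per peak as the authors' SEACR run wrote it, and the CTCF list gives the fold enrichment of each peak as the peak caller wrote it and as deposited. Only the positions of both were used, with these values ranking the stronger peaks in 1 alternative. Cerebellum CTCF lists and a deposited RNA CPM table were not used here.

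Counts were fitted with edgeR 4.0.16 in R 4.3.3 (quasi-likelihood test, TMM, mean over 1 CPM, Benjamini-Hochberg FDR under 0.05 and absolute log2 fold change over 0.5), adjusted over all features. RNA libraries held 25581041 to 54511107 counts, state ATAC libraries 8263234 to 17190963 and sorted-nuclei libraries 8685497 to 11177208, which bounds the precision of low values. Standard errors follow from the F statistic. Each member was linked to the nearest GENCODE start site within 200 kb, for 22361 of 31854 gene symbols of the RNA table that had one. Motifs were searched on both strands of 300 bases around the midpoint of each peak in the RefSeq GRCm38 sequence. Shares carry exact binomial 95% intervals, which cover counting error only.

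Members, lists and comparison groups were chosen with earlier results of these data known. Genes named are the nearest gene of the 8 members with the largest change both ways, the 3 with the highest mean, the 10 nearest to genes called higher with fasting and the 10 nearest to genes called lower with leptin, genes of 4 lists with a member within 200 kb, and the factor list; others are said to be chosen after their values were seen. Same-numbered RNA libraries correlated in their deviations from the group means (r of 0.536 to 0.814 in 10 pairs, against -0.642 to 0.642 in 30 other pairs), so the numbers pair them. AgRP-positive and AgRP-negative nuclei came from the same pooled samples, with r of 0.0988. In simulated data with the same depth the fit recovered 141 of 200 genes changed by 1 log2 unit in RNA, 66 of 200 peaks in sorted nuclei and 24 of 200 in the state ATAC table. P-values measure the spread between pools of 4 mice. Alternatives were DESeq2 1.42.0, library-size scaling, no filter, the replicate block, other windows, distances and thresholds, and each library left out. Python 3.11.15, SciPy 1.17.1, NumPy 2.4.6 and pandas 2.3.3 were used. Some genes that meet the rule for names are not reported here.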

Additional observations from a re-analysis of the deposited data

Results flagged for a closer look

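In groups of 4 RNA libraries, 12 of 114 tests found a library far from the other 3, where chance gives about 1 in 20. In 6 of these the library was replicate 4. Fasted library 4 held 182 CPM of Lrrc7 (others 81.5 to 85.8), 233 of Pgr (76.8 to 89.2), 67.5 of Mef2c (20.7 to 27) and 244 of Mef2d (152 to 168), and leptin library 4 held 163 of Lrrc7 (86.3 to 96.8) and 166 of Pgr (69.3 to 85.3). The remaining 6 were smaller. Myrip stood at 119 CPM in fasted library 3 (109 to 110), Pwwp2b at 11.1 in leptin library 2 (9.30 to 9.54), Npy1r at 28.9 in leptin library 2 (22.7 to 22.8), Crh at 6.26 in leptin library 2 (4.10 to 4.33), Stat2 at 19.4 in leptin library 1 (13.6 to 13.8) and Nr3c2 at 64.1 in leptin library 1 (49.9 to 51.4). Lrrc7, Pgr, Mef2c and Mef2d passed in neither RNA contrast with all libraries or with any 1 left out.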

How the results depend on the processing

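Fed ATAC library 1 is the shallowest, and 2 libraries per state limit every peak value. The number of members was 1848 with no minimum mean and 284 with a difference of 1 both ways. Leaving out 1 library gave 1037 to 3017 members: 3017 without fasted library 2, of which 972 were in the main set, and 2161 without leptin library 1. Without fasted library 1 there were 1186, of which 610 were in the main set. Members called higher with fasting numbered 456 to 743 with 1 library left out, lowest without fasted library 1. Members called lower with leptin numbered 98 with no filter, where 0.415% of all peaks were called lower. With the replicate block they numbered 214, against 0.992% of all peaks. The state ATAC numbers do not support that block as a pairing (r of -0.00228 to 0.165). In sorted nuclei the lower count was 9 to 20 with 1 library left out, and scaling by library size moved the median of all peaks from 0.0 to 0.163 log2 units, with 251 members higher and 20 lower.

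Genes near members that rose with fasting numbered 23 with library-size scaling (1.1% of all genes) and 34 to 54 with 1 library left out. With every start site within 200 kb, 108 of 2500 rose (4.32%, against 2.81% of all genes). Those that fell with fasting numbered 7 with DESeq2 (1.6% of all genes) and 13 with the replicate block (2.58%). Without the replicate 4 libraries, an alternative chosen after seeing the data, 12 fell (2.24% of all genes). With starts within 50 kb 1 of 406 fell, and with every start site 25 of 2500 (1.0%, against 1.08% of all genes). With leptin, 30 of 2500 rose with every start site (1.2%, against 1.19% of all genes) and 4 to 10 with 1 library left out. Those that fell with leptin numbered 7 with library-size scaling (0.284% of all genes), where 6 rose, and 33 with the block (1.07%). Within 50 kb 8 of 406 fell, and with every start site 37 of 2500 (1.48%, against 0.604% of all genes). In the sorted nuclei the block moved no count by over 1.5 times.

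AP-1 matches were in 32.1% and 49.9% of members with windows of 200 and 500 bases (24.4% and 36.3% of all peaks), the inverted repeat in 27.2% and 43.4% (8.97% and 18.6%) and MEF2 in 33.3% and 57.3% (16.6% and 36.6%). At a difference of 1 they were in 32.0%, 44.0% and 50.7%. CTCF overlap was 2.33% with the stronger peaks and 3.52% at a difference of 1, and promoter members were 3.63% when both sides of a start count. Of the values of named genes, 254 kept their side of the threshold with DESeq2, 11 passed in addition and 3 no longer passed. With library-size scaling these were 219, 0 and 51. No value changed direction while called. The causes were not tested.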
